A study of Mus musculus with 12 samples.

Results

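This account covers the m6A peaks on mRNAs of GTPase regulators in mouse embryonic stem cells. Members were all listed genes whose symbol begins with Arhgef, Dock, Arhgap, Rapgef, Rasa, Rasal, Tbc1d or Rgs followed by a digit, or with Plekh. The rule uses names alone and no measured value. It found 75 of the 6074 gene symbols in the deposited peak tables, and all 75 gene IDs were in the GENCODE M21 annotation.

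Small GTPases such as Rac, Ras, Rap and Rab proteins switch between a GDP-bound resting form and a GTP-bound active form. Guanine nucleotide exchange factors (GEFs) load GTP, and GTPase-activating proteins (GAPs) speed up its hydrolysis. Arhgef, Dock and Rapgef proteins are GEFs, and those of the Rapgef family act on Rap or Ras. Arhgap proteins are GAPs, Rasa and Rasal proteins are GAPs for Ras or Rap, and most Tbc1d proteins are GAPs for Rab GTPases of membrane traffic. The name rule also brings in relatives with other targets. Rgs proteins act on the alpha subunits of heterotrimeric G proteins, and Rgs9bp is an anchoring protein for the RGS protein Rgs9. Plekh proteins share a pleckstrin homology domain, and of these the Plekhg proteins are GEFs while others bind phosphoinositides or serve as adaptors of endosomes and lysosomes. N6-methyladenosine (m6A) is a methyl mark placed on mRNA by a complex of Mettl3, the catalytic subunit, and Mettl14, which helps it bind RNA.

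The cells were J1, a line of mouse embryonic stem cells, kept with LIF on irradiated embryonic fibroblasts. Lentivirus brought in 1 of 3 shRNAs, namely a scramble sequence, a Mettl14 knockdown or a Mettl3 knockdown, and puromycin selected the infected cells. The scramble cells therefore shared the vector, the selection and the feeder layer with the knockdown cells. An antibody to m6A pulled down fragments of poly(A) RNA, and each of the 3 groups has 2 such IP libraries. The deposited tables pair 1 knockdown library with 1 scramble library, and they fall into 2 sets that have no library in common. Each set holds 1 scramble, 1 Mettl14 knockdown and 1 Mettl3 knockdown library. Both knockdowns of a set are compared with the same scramble library, so their values are not independent. No source used here says that the libraries of a group came from separate cultures, so spread between sets may be technical. The tables give no expression level, so neither the knockdown nor the abundance of a regulator mRNA was checked. Fewer cells carrying a transcript and less of it per cell cannot be told apart in such bulk RNA. Of 20 markers of embryonic stem cells, 7 had a listed peak in any library, and the 5 peaks found in both scramble libraries, on Sox2, Klf4, Tbx3, Sall4 and Fgf4, were kept in all 4 knockdown libraries. Of 20 markers of feeder fibroblasts, 4 had a listed peak, and the only peak in both scramble libraries was on Pdgfrb. That peak had a log2 change of -1.24 in set 1 with Mettl14 knockdown and 0.36 with Mettl3 knockdown, and was lost in set 2 with both. The part of feeder RNA in the results was not tested.

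Antibody peaks are wider than a single methylated base, and GGACT is the best-known core of the sequence that the writer complex methylates. The windows below are 30 nt of the annotated transcript around the GGACT nearest to the peak midpoint, 5′ to 3′, with every GGACT in capitals. They come from GENCODE M21 transcripts on GRCm38, which is mm10, the build of the files. They show a 3′ UTR site of Arhgef17 that was lost in every knockdown library beside a coding site of the same mRNA that was kept. Also shown are a coding site of Tbc1d14 that was lost in every knockdown library, and the kept but lower sites of Plekhg2 and Tbc1d9. The others are the kept site of Arhgap23, and the sites of Arhgap5 and Rasal1 that were higher in a knockdown.
Arhgef17 site 1, chr7:100873270-100873299, minus strand, 3′ UTR: ggcataccattcGGACTctgtctcatcctt
Arhgef17 site 2, chr7:100929362-100929391, minus strand, coding: cgaagagaacaaGGACTatcaggaagtcat
Tbc1d14 site 2, chr5:36571809-36571838, minus strand, coding: ccttcaatcagtGGACTcgggcattcctac
Plekhg2 site 1, chr7:28360550-28360579, minus strand, coding: ggaaggtcgtccGGACTgcagcatcccatg
Arhgap23 site 2, chr11:97452081-97452110, plus strand, coding: ttgcccttctcgGGACTtgacccaggcccc
Tbc1d9 site 1, chr8:83271205-83271234, plus strand, coding: cattaaactggaGGACTcctcacccaggga
Arhgap5 site 1, chr12:52516300-52516329, plus strand, coding: ttGGACTctctgGGACTgaaaaagacaaag
Rasal1 site 1, chr5:120679355-120679384, plus strand, 3′ UTR: gccaaccctggcGGACTcagaaaagcattc
The windows were chosen to hold GGACT, so they say nothing on how often lost and kept sites have it. A match is a description of the letters in the window and not evidence that this adenosine carries the mark.

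Regulator mRNAs often carried a peak. Of 168 annotated protein-coding genes that fit the name rule, 75 (44.6%) had a listed peak in any library and 55 (32.7%) a scramble peak in both sets. The same shares over all 21951 protein-coding genes were 26.4% and 15.2%, and neither figure takes transcript length or expression into account. By role, a peak in any library was listed for 12 of 26 Arhgef, 3 of 11 Dock and 5 of 6 Rapgef exchange factors. Among GAPs, 17 of 35 Arhgap, 3 of 7 Rasa or Rasal and 15 of 30 Tbc1d genes had 1. Plekh genes had a peak in 16 of 30 cases. Rgs genes had the lowest share, with 4 of 23 (17.4%), and these were Rgs3, Rgs9bp, Rgs12 and Rgs16. Another 15 genes had a scramble peak in 1 set alone, and 5 genes (Arhgap24, Arhgef5, Dock9, Plekha4 and Tbc1d4) had peaks in knockdown libraries alone.

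Peaks that overlapped on the same strand by at least 1 nt were joined into sites, which gave 129 sites on the 75 genes. A single site was found on 37 genes, and the most on any gene was 4, on Arhgef26, Plekhg2, Tbc1d16 and Tbc1d24. All 6 libraries listed 42 of the sites, 52 were in 2 to 5 libraries and 35 in 1 library only. Of those 35, 23 came from a scramble library and 12 from a knockdown library. Peaks at Arhgef4 also carry the name of a neighbouring gene, C230030N03Rik, and the Tbc1d22b peak also that of Ftsjd2, so these assignments are uncertain.

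The scramble libraries listed 101 regulator peaks in set 1 and 87 in set 2. The Mettl14 knockdown libraries listed 85 and 64, and the Mettl3 knockdown libraries 71 and 66. Every knockdown library was thus below both scramble libraries. The mean was 94 peaks in scramble (SD 9.90, n = 2) and 71.5 in knockdown (SD 9.47, n = 4), with an exact two-sided permutation p of 0.0667, the smallest that the 15 arrangements of 6 libraries allow. With libraries exchanged only within their set it was 0.111, the smallest of the 9 arrangements. The regulator sequence under peaks was 74.0 and 67.9 kb in scramble and 46.1 to 50.5 kb in knockdown libraries (exact permutation p = 0.0667). Over all peaks it was 5212 and 4254 kb in scramble and 3052 to 3386 kb in knockdown libraries, so the groups were apart there too. The whole lists held 7886 and 5438 peaks in scramble and 4367 to 5717 in knockdown libraries, so in peak number the groups overlapped. Regulators made up 1.28% and 1.60% of the scramble peaks and 1.40% to 1.49% of the knockdown peaks. Depth is known only through the tags of the listed peaks, since the tables give no read totals. Knockdown peaks on regulators held 4 to 497 tags. Scramble tags are listed only for peaks lost in at least 1 table of their set, here 39 of 101 and 41 of 87 regulator peaks. Those held 10 to 300 tags, so the 2 ranges do not compare depth.

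A scramble peak was called lost where the knockdown library of its set listed no overlapping peak, which does not mean that no m6A remained there. With Mettl14 knockdown 32 of the 101 set 1 regulator peaks were lost (31.7%, 95% Wilson interval 23.4 to 41.3) against 43.3% of all scramble peaks. In set 2 it was 35 of 87 (40.2%, interval 30.6 to 50.7) against 45.9%. With Mettl3 knockdown 36 of 101 were lost in set 1 (35.6%, interval 27.0 to 45.4) against 45.4% of all peaks, and 32 of 87 in set 2 (36.8%, interval 27.4 to 47.3) against 41.9%. The regulator share was below the share of all peaks in each of the 4 tables, and the latter lay outside the regulator interval in set 1 of Mettl14 knockdown and at its edge in set 1 of Mettl3 knockdown. The intervals cover counting error only, and the tables of a set share their scramble library. Here and in the fates below, all peaks include those assigned to no gene, while every regulator peak has a gene. The shares were not adjusted for this.

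Scramble against scramble showed losses of a similar kind. Of the set 1 regulator peaks 27 (26.7%) had no partner in the set 2 scramble library, where the share over all peaks was 41.8%. In the other direction it was 12 of 87 (13.8%) against 17.4%. For the 74 regulator peaks found in both scramble libraries, the log2 ratio between sets had an SD of 0.67, and 9 (12.2%) differed by 2-fold or more. Over all such peaks the SD was 0.84 and the share 15.8%. A log2 change of less than about that SD at a single site is therefore within what the scramble libraries differ by.

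New peaks, listed in a knockdown library with no scramble partner, were few. With Mettl14 knockdown 11 of 85 regulator peaks were new in set 1 and 10 of 64 in set 2, against 18.9% and 31% of all knockdown peaks. With Mettl3 knockdown there were 5 of 71 and 11 of 66, against 12.8% and 28.1%. Sites new in both sets numbered 1 of the 54 regulator sites listed in both Mettl14 knockdown libraries and 1 of 57 for Mettl3, against 5.36% and 2.95% of all such sites. Tbc1d4, a Rab GAP that acts downstream of Akt in glucose transporter traffic, had a coding peak (chr14, 101444512 to 101444778) of enrichment 67.6 and 70.6 with Mettl14 knockdown, from 11 and 14 tags. Tbc1d14, a TBC protein linked to autophagy, had a coding peak (chr5, 36543270 to 36543391) of 32.6 and 24.2 with Mettl3 knockdown, from 22 and 17 tags. Both were absent from the other knockdown and from both scramble libraries.

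Peaks listed in both libraries of a table were compared by their fold enrichment, the ratio of IP to input within the peak as the authors give it, with knockdown values multiplied by the authors' constant for that table. The regulator peaks had a median log2 change, knockdown over scramble, of -0.21 in set 1 and -0.71 in set 2 with Mettl14 knockdown, beside -0.06 and -0.60 for all peaks. With Mettl3 knockdown the medians were -0.05 and -1.02, beside 0.22 and -0.91. The regulator median was below that of all peaks in each table, and this difference was not tested. Set 2 was lower than set 1 in both knockdowns, and its values depend on the scaling. The constants move the median of all peaks by -0.14 and -0.36 after Mettl14 knockdown, and by 0.00 and -0.72 after Mettl3 knockdown. Without them the regulator medians were -0.07 and -0.34 after Mettl14 knockdown and -0.05 and -0.30 after Mettl3 knockdown.

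Peaks lower by 2-fold or more numbered 7 of 69 shared regulator peaks in set 1 and 19 of 52 in set 2 with Mettl14 knockdown, against 11.2% and 26.8% of all shared peaks. With Mettl3 knockdown they numbered 4 of 65 and 30 of 55, against 6.65% and 44.2%. Without the constants, set 2 held 7 such peaks in each knockdown. They made up 13.5% of shared regulator peaks with Mettl14 and 12.7% with Mettl3 knockdown, against 13% and 13.9% of all shared peaks. Peaks higher by 2-fold or more numbered 3 and 0 with Mettl14 knockdown, against 8.97% and 2.45% of all peaks. In the Mettl3 tables they numbered 11 and 1, against 16% and 1.08%. The plot of set 1 against set 2 shows the regulator peaks within the cloud of other peaks, shifted to lower values in set 2.

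**Figure D1:**
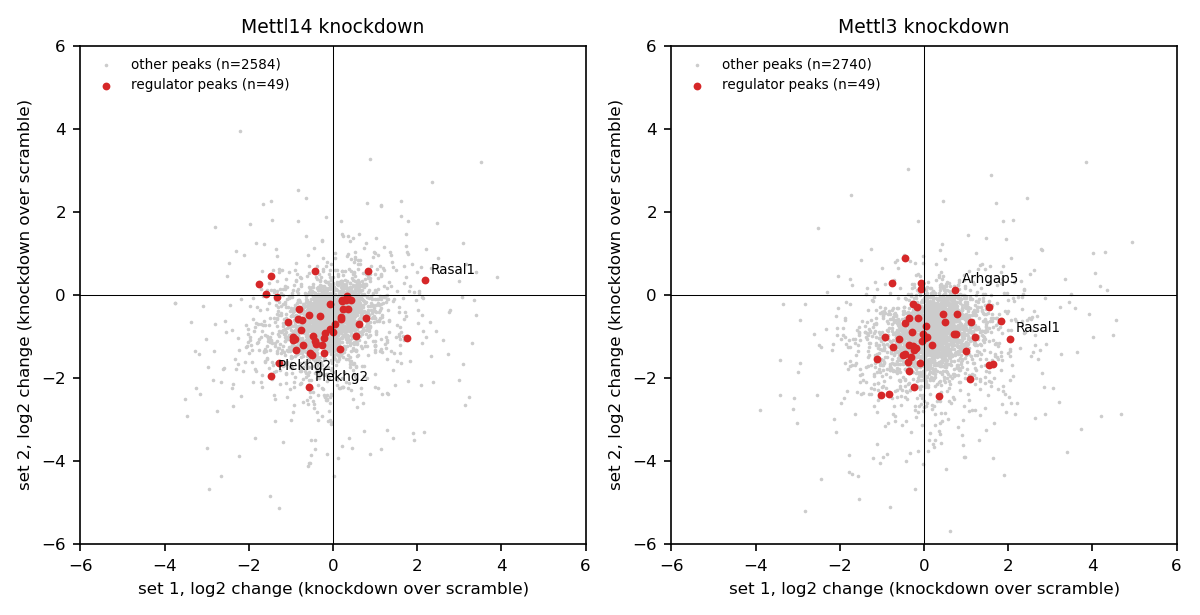
Log2 change of peak enrichment, knockdown over scramble, in set 1 (horizontal axis) and set 2 (vertical axis), left for Mettl14 and right for Mettl3 knockdown. Each point is a peak listed in both scramble libraries and in both knockdown libraries, with the 49 regulator peaks of each panel in red and other peaks in grey. Most red points lie below 0 on the vertical axis.

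For single sites the libraries can be set side by side without overlap of the groups. Among the 42 regulator sites in all 6 libraries, both Mettl14 knockdown values were below both scramble values at 19 (45.2%), where the share over all genes' sites was 34%. Both Mettl3 knockdown values were below both scramble values at 13 (31.0%), against 20.4%. The reverse was found at 1 site (2.38%) after Mettl14 knockdown and at none after Mettl3 knockdown, against 3.7% and 1.36%. Without the constants the counts were 14 and 13 below, against 21.6% and 17.4% over all sites, and 5 and 3 above, against 13.3% and 17.1%. With the median of all peaks set to 0 they were 11 and 15 below, against 20.3% and 20.6%, and 7 and 7 above, against 20.9% and 20%.

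limma, a linear model that shares the estimate of spread over sites, was fitted to log2 enrichment at the 2074 distinct sites listed in all 6 libraries, with the 2 libraries of a group as replicates. With the authors' constants it used a single spread for all sites (standard error 0.75), so the spread of a site itself did not count. None of the 42 regulator sites passed an adjusted p of 0.05 with either knockdown, where 0.241% of all sites were lower with Mettl14 and 0.627% with Mettl3 knockdown, and 0.0482% were higher with each. At an unadjusted p under 0.05, 1 regulator site (2.38%) was lower with Mettl14 and 2 (4.76%) with Mettl3 knockdown, against 3.81% and 4% of all sites. None was higher, against 0.289% and 0.482% of all sites. With the set as a block the lower sites at that p numbered 3 (7.14%) and 4 (9.52%), against 6.89% and 7.47% of all sites. With this block 1 regulator site (2.38%) was higher with Mettl14 and 0 with Mettl3 knockdown, against 0.434% and 0.723%. Again none passed the adjustment. Of all sites, 0.868% with Mettl14 and 1.21% with Mettl3 knockdown were lower at the adjusted p, and 0.0482% were higher with each. The smallest adjusted p of a regulator site was then 0.275 with Mettl14 and 0.214 with Mettl3 knockdown. Without the constants and the block, 0% of all sites were lower at the adjusted p, and 0.0482% were higher with each knockdown. Sites lost in a library are not part of this fit.

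The peaks in both scramble libraries give the firmest view of single mRNAs. Of these 74 regulator peaks, 42 (56.8%) were kept in all 4 knockdown libraries, against 49.2% of all such peaks. A further 10 (13.5%) were lost in all 4, against 11.2%. Lost or lower by 2-fold or more in both sets were 16 (21.6%) with Mettl14 knockdown, against 25.5%, and also 16 with Mettl3 knockdown, against 25.3%. None was higher by 2-fold or more in both sets of either knockdown, where the shares over all peaks were 0.37% and 0.305%. These regulator shares were near those of all peaks. The 10 peaks lost everywhere had a median width of 547.5 nt in the set 1 scramble library, and the 42 kept ones 794 nt. The same widths over all peaks were 456.5 and 862.5 nt. With only entries of a deposited FDR of at most 5%, 65 regulator peaks were left in both scramble libraries. This FDR is that of the knockdown peak where a peak is shared and that of the scramble peak where it is lost. The filter is therefore not one on scramble peaks alone. Of the 65 peaks, 4 were lost in all 4 knockdown libraries, on Arhgef17, Rapgef1, Tbc1d2 and Tbc1d14. The share of all peaks under this filter is not given here.

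**Figure D2:**
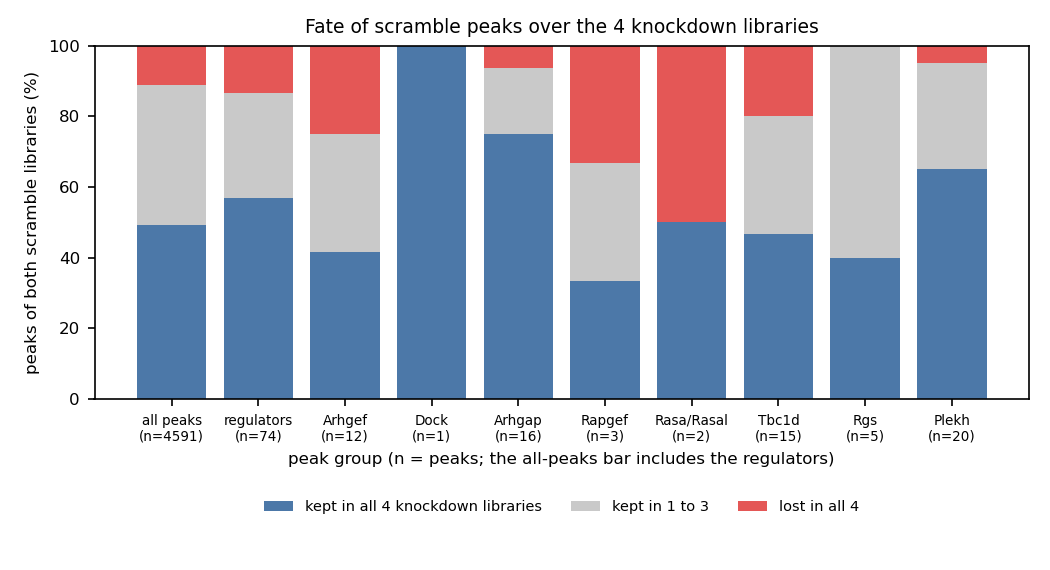
Share of peaks of both scramble libraries (vertical axis, percent) that were kept in all 4 knockdown libraries, kept in 1 to 3 of them or lost in all 4, for all peaks, for the regulators and for each family, with the number of peaks under each bar. Arhgap and Plekh had the larger kept shares among families with over 10 peaks, at 75.0% and 65.0%, and Arhgef the smallest, at 41.7%.

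The Arhgef exchange factors had 12 peaks in both scramble libraries, of which 3 were lost in all 4 knockdown libraries and 5 kept in all 4. Lost or lower by 2-fold in both sets were 4 with Mettl14 and 5 with Mettl3 knockdown. Those 5 include both set 1 peaks of the first Arhgef10 site, which overlap a single set 2 peak. Over all such peaks the shares were 11.2% lost and 49.2% kept in all 4, and 25.5% and 25.3% lost or lower. Arhgef17, an exchange factor, shows both outcomes on 1 mRNA. Its 3′ UTR peak (site 1, chr7, 100872779 to 100873395) had an enrichment of 27.8 and 20.6 in scramble, from 50 and 101 tags, and was lost in all 4 knockdown libraries. The peak at its 5′ end (site 3, chr7, 100931725 to 100932262, midpoint in the 5′ UTR) had 21.01 and 23.2 from 35 and 37 tags and was lost in the same 4. Between them, the long coding peak (site 2, chr7, 100928618 to 100931034) was listed everywhere, at 10.2 and 11.8 in scramble, 8.77 and 5.76 after Mettl14 knockdown and 9.86 and 5.41 after Mettl3 knockdown. Its 4 knockdown values were all below its scramble values, by log2 changes of -0.05 to -1.12.

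Arhgef18, another exchange factor, had a single 3′ UTR peak (chr8, 3454858 to 3455414) of low enrichment, 6.22 and 5.96 from 110 and 117 tags, and lost it in all 4 knockdown libraries. Arhgef10, an exchange factor studied in peripheral nerve, carried a first site (chr8, from 14940201) that holds 2 set 1 peaks of enrichment 39.8 and 19.5 and 1 set 2 peak of 32.4. With Mettl14 knockdown that site read 20.6 and 15.9, below scramble at its higher set 1 peak by log2 changes of -0.95 and -1.02. With Mettl3 knockdown it was lost in both sets.

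Arhgef15, an exchange factor of the vascular endothelium and neurons, had the highest mean enrichment among the 12 Arhgef peaks found in both scramble libraries. Its 3′ UTR peak (chr11, 68943324 to 68943653) read 86.8 and 133 in scramble, 61.9 and 67.3 after Mettl14 knockdown and 100 in set 1 after Mettl3 knockdown, and was not listed in set 2. The knockdown peaks rest on 16 to 22 tags. Arhgef26 had 4 sites, some of them of higher enrichment but none in both scramble libraries. Its site 2 in the coding sequence read 375 in the set 2 scramble library, at a call 188 nt wide, and 15.6 to 32.5 in the 4 knockdown libraries, at calls of 523 to 711 nt, so its log2 changes of -4.09 and -4.59 in set 2 compare regions of unlike width.

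Dock and Rapgef exchange factors gave few sites. Dock5, a Rac exchange factor, had the only Dock peak in both scramble libraries, in the 3′ UTR (chr14, 67755955 to 67756570). It read 21.2 and 20.99 in scramble, 8.73 and 6.78 after Mettl14 knockdown and 17.97 and 4.50 after Mettl3 knockdown. All 4 knockdown values were below both scramble values, with log2 changes of -1.28 and -1.63 for Mettl14 and -0.24 and -2.22 for Mettl3. Dock3, also a Rac exchange factor, had a coding peak of 24.4 in the set 2 scramble library only. Rapgef1, a Rap exchange factor, lost its broad 3′ UTR peak (chr2, 29737885 to 29739088) in all 4 knockdown libraries. That peak had the lowest enrichment of the 10, 4.80 and 5.57, and the most tags, 268 and 300. Rapgef6 had a coding peak (chr11, 54691264 to 54691734) of 36.8 and 23.5 in scramble. It read 20.7 with Mettl14 knockdown in set 1, was lost in set 2, and read 28.8 and 6.55 with Mettl3 knockdown.

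Plekhg2 belongs to the exchange factors by its catalytic domain and had peaks at 4 sites. Site 1, in the coding sequence (chr7, 28360094 to 28361347), read 20.8 and 17.4 in scramble, 7.51 and 4.48 after Mettl14 knockdown and 10.2 and 3.28 after Mettl3 knockdown. The groups did not overlap, and the log2 changes were -1.47, -1.96, -1.03 and -2.41, from 236 to 270 tags per knockdown peak. It was the only regulator site that was listed in every library and lower by 2-fold or more in both sets of both knockdowns. The neighbouring coding site 2 (chr7, 28361887 to 28362594) read 19.3 and 28.1 in scramble and 5.33 to 12.9 in the knockdown libraries, with log2 changes of -0.58 and -2.21 for Mettl14 and -0.82 and -2.40 for Mettl3. Site 3, on an exon of a non-coding transcript of the gene (chr7, 28370684 to 28371012), read 17.3 and 46.0 and was lost in all 4 knockdown libraries. Site 4, in the 5′ UTR, was listed in the set 1 scramble library only. No Plekhg2 peak was thus higher than in scramble in any knockdown library.

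Among the other Plekhg exchange factors, Plekhg3 had a coding site (chr12, 76577681 to 76578735) of 24.2 and 22.9 in scramble and 7.43 to 18.5 in the knockdown libraries, lower in all 4. Plekhg1 had a coding site (chr10, 3963402 to 3964376) that read 32.6 and 28.0 in scramble, 22.0 and 20.04 after Mettl14 knockdown, and 116 and 18.1 after Mettl3 knockdown. Its Mettl3 knockdown values went opposite ways in the 2 sets, though the set 2 change of -0.63 became 0.09 without the constants. These genes, and others named here that the rule for named genes does not list, were chosen as examples after their values were seen.

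Arhgap mRNAs kept most of their peaks. Of 16 Arhgap peaks in both scramble libraries, 12 were kept in all 4 knockdown libraries and 1 was lost in all 4. Over all such peaks 49.2% were kept and 11.2% lost in all 4. In coding sequence, where 13 of the 16 lay, 59.1% of all peaks were kept. Lost or lower by 2-fold in both sets were 2 after Mettl14 knockdown and 1 after Mettl3 knockdown, against 25.5% and 25.3% of all such peaks. Arhgap23, a GAP with a PDZ domain, had 3 coding sites. Its site 1 (chr11, 97444091 to 97444374) read 21.9 and 24.7 from 36 tags in each scramble library and was the Arhgap peak lost everywhere. Site 2 (chr11, 97451358 to 97452451) stayed in every library, at 13.5 and 11.4 in scramble, 15.8 and 8.96 after Mettl14 knockdown and 15.4 and 4.95 after Mettl3 knockdown, so each knockdown was higher in set 1 and lower in set 2. Without the constants the set 2 change with Mettl14 knockdown turned from -0.35 to 0.02.

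Arhgap5, a GAP, had the 1 regulator peak of the 42 shared in all 4 tables (2.38%) at which the knockdowns went opposite ways in both sets, against 1.46% of all such peaks. Without the constants there were 3 such peaks, against 4.56%, and median-centred changes gave 5, against 5.4%. It was also the 1 of 49 peaks shared in both Mettl3 tables that was positive in both, against 4.05% of all peaks, and without the constants 7 were, against 27.9%. Site 1, in the coding sequence (chr12, 52516075 to 52516749), read 30.5 and 16.1 in scramble, 22.8 and 7.504 after Mettl14 knockdown and 51.0 and 17.6 after Mettl3 knockdown. The log2 changes were -0.42 and -1.10 for Mettl14 and 0.74 and 0.12 for Mettl3, and the Mettl3 value of set 2 is well within the spread between scramble libraries. Arhgap28 had 2 neighbouring 3′ UTR sites. The stronger (chr17, 67845252 to 67845675) read 79.1 and 31.8 in scramble, was lost in both Mettl14 knockdown libraries and in set 1 with Mettl3 knockdown, and read 73.1 in set 2 with Mettl3 knockdown. The peak listed for Arhgap8 (chr15, 84772206 to 84772543) lies almost wholly past the annotated end of the gene, so its assignment is uncertain. It read 40.8 and 44.8 in scramble, 137 and 21.8 after Mettl14 knockdown and 33.8 and 19.1 after Mettl3 knockdown, from 16 to 25 tags.

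Ras GAPs gave 2 peaks in both scramble libraries, with opposite outcomes. Rasal2 lost its coding site 3 (chr1, 157156965 to 157157834), at 6.79 and 11.1 from 104 and 91 tags, in all 4 knockdown libraries, and its other 2 sites were listed in the set 2 scramble library only. Rasal1 had a 3′ UTR peak (chr5, 120679037 to 120679518) of 18.6 and 36.3 in scramble, 84.0 and 46.2 after Mettl14 knockdown and 76.2 and 17.5 after Mettl3 knockdown. Both Mettl14 knockdown values were above both scramble values, by log2 changes of 2.18 and 0.35, while those for Mettl3 were 2.04 and -1.05. The scramble values themselves lie further apart than the SD between scramble libraries, and the knockdown peaks hold 24 to 37 tags at widths of 323 to 451 nt against 482 and 461 nt in scramble.

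The Tbc1d family, whose members mostly act on Rab GTPases, had 15 peaks in both scramble libraries, of which 3 were lost in all 4 knockdown libraries and 7 kept in all 4. Lost or lower by 2-fold in both sets were 3 with Mettl14 and 5 with Mettl3 knockdown. Over all such peaks the shares were 11.2% lost and 49.2% kept in all 4, and 25.5% and 25.3% lost or lower. The 3 lost peaks were the coding site of Tbc1d14 (chr5, 36571349 to 36572067; 8.61 and 10.9 from 66 and 80 tags), the coding site 2 of Tbc1d2 (chr4, 46649780 to 46650122; 21.7 and 13.7 from 57 and 60 tags) and the stop codon site of Tbc1d1 (chr5, 64349732 to 64350207; 5.41 and 8.28 from 129 and 103 tags). Tbc1d1 is a Rab GAP of glucose transporter traffic and a close relative of Tbc1d4, and Tbc1d2 acts on Rab7. The second Tbc1d2 site, at its stop codon, was kept in 3 knockdown libraries.

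Tbc1d16, a Rab4 GAP, had scramble peaks at 4 sites, as did Tbc1d24. Its coding site 4 (chr11, 119208811 to 119209449) read 12.6 and 18.2 in scramble, 7.72 and 7.90 after Mettl14 knockdown and 5.89 after Mettl3 knockdown in set 2, and was lost in set 1. Its 2 sites at the 3′ end were listed in the set 1 scramble library only. Tbc1d9 had a coding peak (chr8, 83270935 to 83271699) of 33.8 and 39.6 in scramble, 24.1 and 14.5 after Mettl14 knockdown and 23.7 and 14.6 after Mettl3 knockdown. The groups did not overlap there, and the 2 knockdowns gave nearly equal values within each set.

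The Rgs family, which acts on heterotrimeric G proteins, had 5 peaks in both scramble libraries, 2 of them kept in all 4 knockdown libraries and none lost in all 4. Over all such peaks 49.2% were kept and 11.2% lost in all 4. Rgs9bp had peaks at 3 sites. Site 2, at its stop codon (chr7, 35584411 to 35584723), read 41.2 and 87.1 in scramble from 18 and 23 tags, was lost in both Mettl14 knockdown libraries and read 127 and 27.4 with Mettl3 knockdown, with log2 changes of 1.63 and -1.67. Rgs16 and Rgs12 site 2 also went opposite ways in the sets with Mettl3 knockdown, with enrichments of 29.3 and 34.8 in scramble and 62.8 and 8.57 in knockdown for the former, and 13.0 and 20.4 against 37.9 and 6.35 for the latter. Higher in set 1 and lower in set 2 was thus the pattern of 3 of the 4 Rgs peaks shared in both Mettl3 tables, and 60.1% of all peaks shared in both had it. Without the constants it was again 3 of 4, against 36% of all peaks.

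The Plekh family as a whole had 20 peaks in both scramble libraries, 13 of them kept in all 4 knockdown libraries and 1, Plekhg2 site 3, lost in all 4. Over all such peaks 49.2% were kept and 11.2% lost in all 4. Lost or lower in all 4 tables to any degree were 14 of the 20 (70.0%), where the share over all peaks was 39.7%. This Plekh count depends on the scaling, with 10 of 20 without the constants and 8 of 20 with the median of all peaks set to 0, beside 32.5% of all peaks in either case. In the Arhgap family it was 2 of 16 (12.5%) under all 3 scalings, and over all regulators 34 of 74 (45.9%), 30 and 29. Plekho1, an adaptor of the cytoskeleton and of ubiquitin ligases, had a coding peak (chr3, 95988945 to 95989679) of 22.4 and 19.2 in scramble and 6.53 to 15.2 in knockdown libraries, all 4 below scramble. Plekhm1, an adaptor that binds Rab7 on late endosomes and lysosomes, had a coding site of 15.6 and 10.8 in scramble and 6.79 to 11.5 in knockdown, with log2 changes of -0.45 to -0.83, of which that of Mettl3 in set 2 turned to 0.04 without the constants. Plekhm3 had a coding site 3 (chr1, 64937756 to 64938373) that stood above scramble in both Mettl14 tables. It read 20.9 and 17.5 in scramble, 37.2 and 25.9 after Mettl14 knockdown and 42.1 in set 1 after Mettl3 knockdown, and was lost in set 2. Its changes were 0.83 and 0.57, and with Rasal1 it made up the 2 of 49 shared regulator peaks (4.08%) that were positive in both Mettl14 tables, against 8.24% of all peaks. Without the constants 10 of the 49 were positive in both, against 22.3%, and median-centred changes gave 12, against 30.1%.

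**Figure D3:**
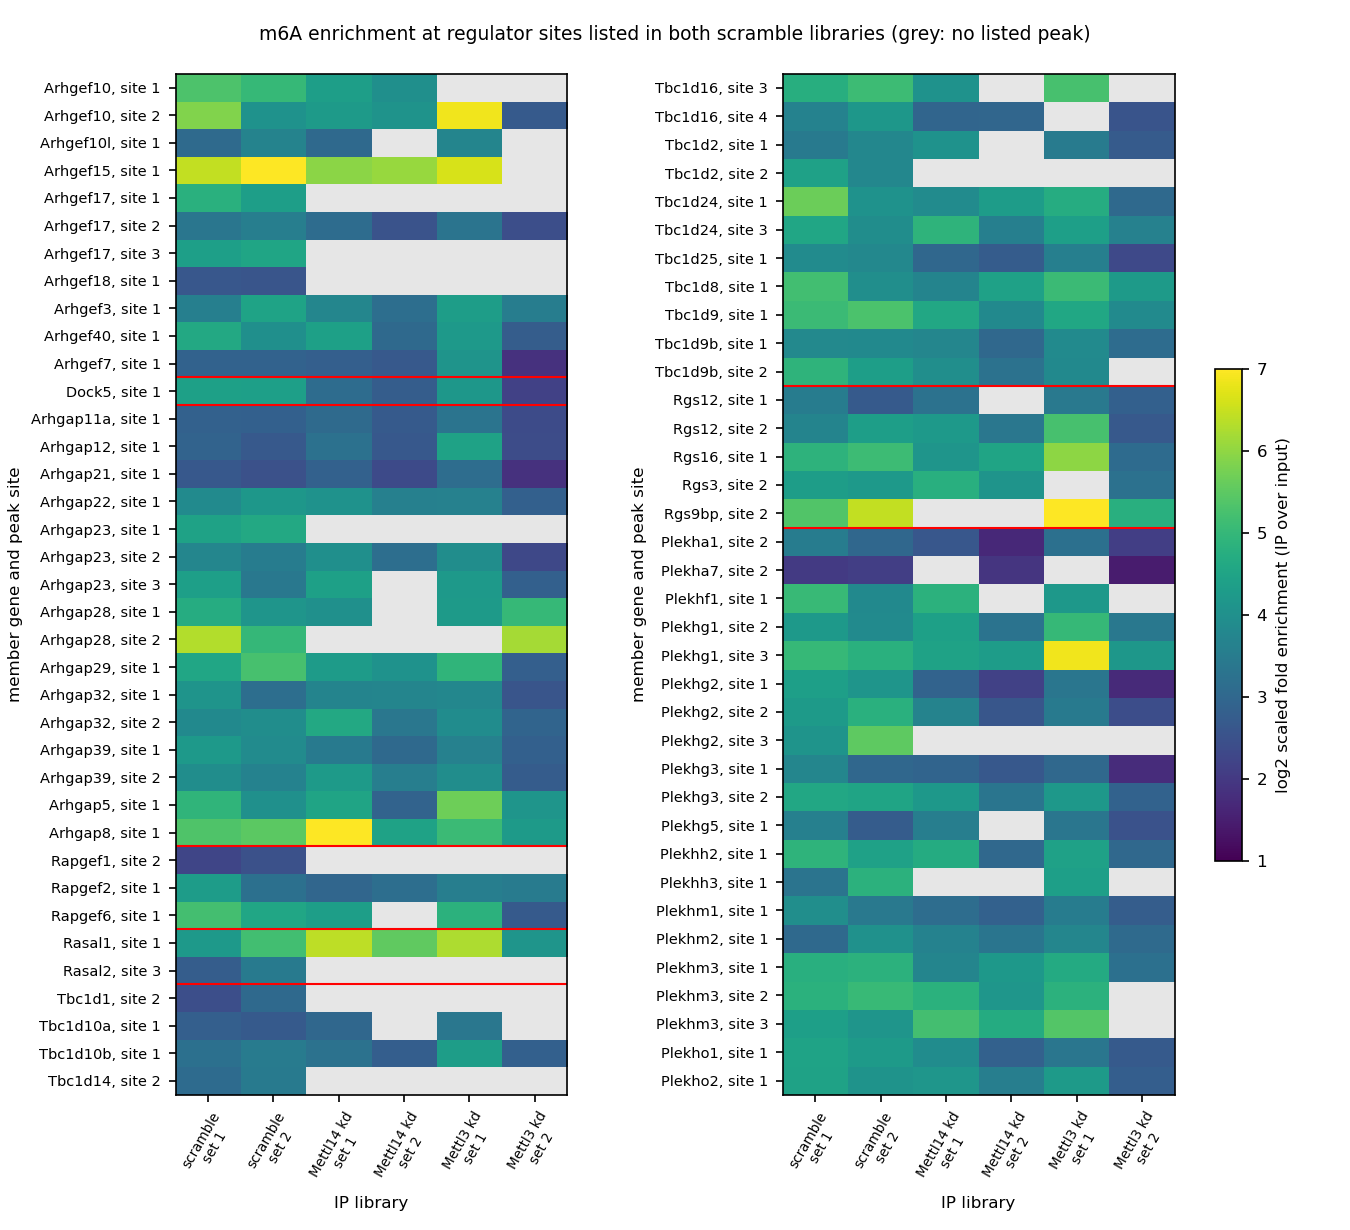
Log2 of the scaled fold enrichment (colour) at each regulator site listed in both scramble libraries, in rows by gene and site, in the 6 IP libraries (columns), with grey where a library lists no peak and red lines between families. The rows grey in all 4 knockdown columns are the 10 sites lost everywhere, and the last column, Mettl3 knockdown in set 2, is darker than the others over most rows.

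Regulator peaks lay in the coding sequence more often than peaks in general. By the midpoint of the part of the peak on the exons of its transcript, 49 of the 74 peaks of both scramble libraries (66.2%) were in coding sequence, where the share of all such peaks was 50.5%. The 3′ UTR held 14 (18.9%, against 20.7%), the window of 100 nt on either side of the stop codon 7 (9.46%, against 11.8%) and the 5′ UTR 1 (1.35%, against 3.03%). A non-coding exon held 1 (1.35%, against 1.96%), and 2 lay outside exons (2.7%, against 12%). Peaks assigned to no gene count among these 12% and no regulator peak is of that kind, so the coding shares have unlike bases. For 2 of the 72 peaks on a transcript the midpoint of the whole peak was off its exons, namely that of Arhgap8, of which 2 nt of 338 are on the gene's last exon, and that of Arhgef10, of which 164 nt of 782 are exonic. The coding share was 13 of 16 for Arhgap, 15 of 20 for Plekh and 10 of 15 for Tbc1d, but 5 of 12 for Arhgef, which had 4 of its 12 in the 3′ UTR. The lengths of the transcript parts were not taken into account.

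Fate is given next by position, with no test of the differences. Of the 49 coding peaks, 33 (67.3%) were kept in all 4 knockdown libraries, and 7 of 14 (50.0%) in the 3′ UTR and 2 of 7 in the stop codon window. Over all peaks the kept shares were 59.1%, 46.2% and 44.0%. Outside exons, 24.5% of all peaks were kept and 0 of 2 regulator peaks. Lost or lower by 2-fold in both sets were 5 of 49 coding peaks (10.2%) after Mettl14 knockdown and 8 (16.3%) after Mettl3 knockdown, against 18.9% and 19.6% of all coding peaks. In the 3′ UTR it was 5 and 4 of 14, against 25.0% and 23.4%. In the stop codon window it was 3 and 1 of 7, against 30.6% and 25.2%.

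**Figure D4:**
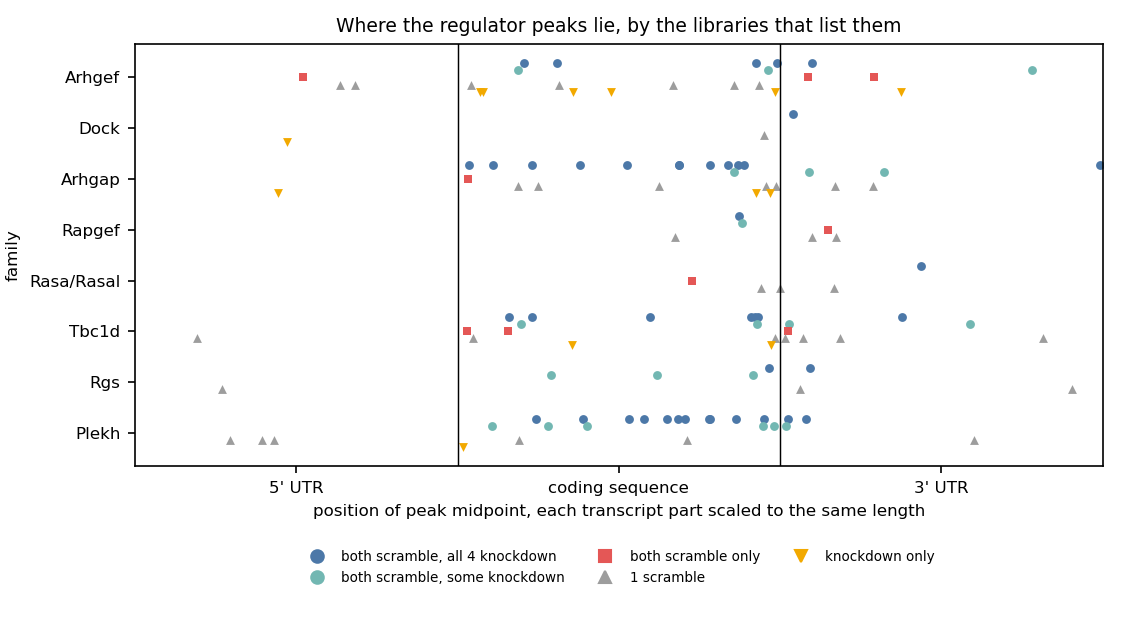
Position of each regulator site on its transcript (horizontal axis, with 5′ UTR, coding sequence and 3′ UTR each drawn to the same length), by family (vertical axis), with the marker giving the libraries that list it. Sites off the exons of coding transcripts are not drawn, and most sites listed in all 6 libraries (blue circles) lie in the coding sequence.

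GGACT, the 1 motif searched, on the transcript strand only, was denser under peaks than elsewhere on the same transcripts. On 55 transcripts it occurred 1.77 times per kb inside the 72 regulator peaks that lay on exons and 1.14 times per kb outside them. Over all peaks of both scramble libraries the densities were 1.66 and 1.05 per kb. At least 1 GGACT was found in 68.1% of the regulator peaks and in 69.0% of all peaks. A window of 101 nt at the peak centre held it in 19.7% of regulator peaks, and 11.7% of windows of that length along the same transcripts did. Peaks kept in all 4 knockdown libraries held 1.72 per kb and those lost or lower in both sets of either knockdown 2.06 per kb, from 42 and 19 peaks. The other measures went the other way. At least 1 GGACT was found in 73.8% of the kept and 63.2% of the lost or lower peaks, and in 5 of the 10 peaks lost in all 4. The centre window held it in 24.4% of the kept and 10.5% of the lost or lower peaks, beside 12.1% and 10.9% along their transcripts. None of these differences was tested.

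The wider GTPase pathway was read from lists of genes outside the name rule. Of 71 small GTPases, 25 had a listed peak and 16 a scramble peak in both sets, with 19 peaks in both scramble libraries. Of these, 5 (26.3%) were lost or lower by 2-fold in both sets after Mettl14 knockdown and 6 (31.6%) after Mettl3 knockdown, beside 25.5% and 25.3% of all peaks. Rhof, a filopodia-forming GTPase, and Rab8b, a GTPase of secretory traffic, each had a peak of enrichment 46.5 and 44.5 in set 1 scramble that was lost in all 4 knockdown libraries. Rhou, an atypical small GTPase, read lower in all 4, with log2 changes of -0.56 to -1.87.

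Exchange factors outside the name rule had the largest shares of lower peaks of these lists. Of 70 such genes 35 had a listed peak, and of their 35 peaks in both scramble libraries 13 (37.1%) were lost or lower by 2-fold in both sets after Mettl14 knockdown and 18 (51.4%) after Mettl3 knockdown. Lost in all 4 were 6 of the 35, on Mcf2l, Trio, Net1, Itsn1, Rab3il1 and Dennd3. Rin3, an exchange factor for Rab5-type GTPases, had a peak whose log2 change was -2.38 and -2.67 in the Mettl14 tables and -3.91 and -2.76 in the Mettl3 tables. The medians of their shared peaks were 0.01 and -0.84 with Mettl14 and 0.31 and -1.12 with Mettl3 knockdown, beside -0.07 and -0.59 and 0.20 and -0.91 for all peaks of both scramble libraries.

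GAPs outside the name rule numbered 66, of which 31 had a listed peak. Of their 32 peaks in both scramble libraries 6 (18.8%) were lost or lower by 2-fold in both sets with each knockdown, and 17 were kept in all 4 libraries. Their medians were -0.33 and -0.75 with Mettl14 and 0.12 and -1.14 with Mettl3 knockdown. Usp6nl, a Rab GAP, had the 1 GAP peak lost in all 4. Of 61 effectors and GDIs, the proteins that read or sequester GTPases, 25 had a listed peak, and 2 (13.3%) and 3 (20%) of their 15 peaks were lost or lower in both sets. No peak of these 4 lists was higher by 2-fold or more in both sets of a knockdown. The lists were chosen with earlier results known, and their differences from all peaks were not tested.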

How the data were processed

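The authors deposited 4 peak tables, each comparing 1 knockdown IP library with 1 scramble IP library. The submitters' processing notes name Picard 1.74, SAMtools 0.1.18, TopHat2 2.0.6, Bowtie 0.12.7, cutadapt 1.1 and CASAVA 1.8.2, with build mm10 and no order of steps. Per the file headers, each peak has a tag count in its own library, a fold enrichment (ratio of IP to input) and a peak score. The authors also deposited a scaled ratio, in which knockdown values are multiplied by 1 constant per table (Mettl14 0.906 in set 1 and 0.777 in set 2, Mettl3 1.00 and 0.609), and a signed fold score for peaks found in both libraries. The deposited FDR is in percent, at most 9.99%. These are the authors' own values, and each fold compares regions called separately in each library.

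From these, scramble enrichments of shared peaks were recovered from the signed fold, and 1624 of 1624 and 1209 of 1209 values that another table lists directly matched within 0.01. Overlap was at least 1 nt on the same strand. Peaks were placed on the GENCODE M21 coding transcript with the best APPRIS rank among those with at least 50% of the largest exonic overlap. A table holds 1 library per group, so its counts stand beside all peaks with no test. An exact permutation test over 6 libraries was used for peak numbers, and limma 3.58.1 (R 4.3.3) with Benjamini-Hochberg adjustment over 2074 sites listed in all 6 libraries for log2 enrichment, without and with the set as a block. The limma fit was added after seeing the data. The fate rules and the limma fit were tested on simulated data. Python 3.11.15, pandas 2.3.3, NumPy 2.4.6 and SciPy 1.17.1 were used. Alternatives were an FDR of at most 5%, an overlap of 50%, the authors' marking of shared peaks, unscaled and median-centred folds, at least 20 scramble tags and single sets or libraries left out.

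Named genes were, per family, the gene with most scramble sites and the gene with the highest scramble enrichment. Per knockdown they were also up to 10 genes lost or lower by 2-fold in both sets, up to 5 higher in both and up to 5 with a new peak in both. Members, lists and tests were chosen with earlier results of these data known. The 6 no-antibody libraries were not analysed here.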

Additional observations from a re-analysis of the deposited data

Results flagged for a closer look

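The coding site 1 of Arhgap5 (chr12, 52516075 to 52516749) moved one way with Mettl14 knockdown and the other way with Mettl3 knockdown in both sets. With the authors' constants it was 1 such peak among the 42 regulator peaks shared in all 4 tables. The log2 changes were -0.42 and -1.10 with Mettl14 and 0.74 and 0.12 with Mettl3, and the mean for Mettl14 minus that for Mettl3 was -1.20. The difference was not tested, and the 2 knockdowns of a set share their scramble library.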

How the results depend on the processing

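The replicate numbers of the labels are tied to no table, so the set, whose knockdowns share a scramble library, served as the block. With this replicate block, added after seeing the data, scramble exceeded knockdown by 22.5 regulator peaks (exact permutation p = 0.111), and limma called 0 of 42 regulator sites with either knockdown, as it did without the block and under both other scalings. Under both other scalings limma called 0% of all sites lower and at most 0.0482% higher. The median change of shared regulator peaks in set 2 became -0.34 without the constants and -0.11 with the median of all peaks set to 0 for Mettl14 knockdown, and -0.30 and -0.10 for Mettl3 knockdown. Single sets were also counted over the 74 regulator peaks in both scramble libraries. Peaks lost or lower by 2-fold or more numbered 22 in set 1 alone and 41 in set 2 alone after Mettl14 knockdown. After Mettl3 knockdown they numbered 19 and 50, against 16 in both sets with each knockdown. Peaks higher by 2-fold or more numbered 2 and 0 in single sets for Mettl14 and 10 and 1 for Mettl3, against 0 in both sets. Shares of all peaks by these single-set rules are not given here, so the counts are not read as particular to regulators. Other alternatives were added after seeing the data. Among these, the peaks lost in all 4 knockdown libraries numbered 4 of 65 at an FDR of at most 5%, against 10 of 74. That FDR was of the knockdown peak where shared and of the scramble peak where lost. Peaks lost in both knockdown libraries of a single set numbered 13 and 15 of 74. The sites with Mettl14 knockdown below scramble numbered 11 with the median set to 0, against 19. The coding share was 63.5% with the transcript of largest exonic overlap. Leaving out 1 library at a time, scramble exceeded knockdown by 15.5 to 29.5 regulator peaks, against 22.5 with all 6. Of the recomputed counts, shares and medians, 80 stayed within 1.5 times, the interval or the spread between sets, and 11 did not, and none changed sign. Depth in reads is not known.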
